A study of Sus scrofa domesticus with 11 samples.

Results

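The genes described here are the nuclear genes of respiratory complexes II, III, IV and V and of cytochrome c, together with the maturation factors that share their names, in the liver of preterm piglets. Members were taken from the deposited table by gene symbol (SDHA to SDHD and anything that begins so, UQCR, COX followed by a digit, ATP5, CYC1 and CYCS), leaving out genes on the mitochondrial chromosome. This gave 43 of 22029 genes, and 39 of them had enough counts to be tested among 13671 genes. By complex, 4 belong to complex II, 6 to complex III, 1 is cytochrome c, 20 belong to complex IV (13 subunits and 7 assembly or cofactor genes) and 12 to complex V.

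Liver RNA came from Yorkshire piglets born preterm and fed by vein (parenteral nutrition), collected at day of life 15. There were 5 libraries from animals given SEFA-6179, which the sources name only by that code, at 48 mg/kg, and 6 from controls given the vehicle MCT (medium-chain triglyceride) at an equal volume, 3 ml/kg. Both groups share the breed, the preterm birth and the feeding by vein, and no group without them, and no sex or litter, is given in the sources used here. Each library was taken as 1 animal, so p-values measure the spread between these libraries. Total counts ran from 15974977 to 23416071 per library, of which the 43 members took between 0.306% and 0.511%. All liver cells were sequenced together, so more mRNA per cell and more cells of a kind cannot be told apart.

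The respiratory chain sits in the inner mitochondrial membrane. Complex II (succinate dehydrogenase) passes electrons from succinate to ubiquinone, complex III passes them on to cytochrome c, and complex IV (cytochrome c oxidase) hands them to oxygen. Complexes III and IV pump protons, and complex V (ATP synthase) uses their return to make ATP. Complex II is made wholly from nuclear genes, whereas the electron-carrying heart of complex IV, cytochrome b of complex III and part of the proton channel of complex V are encoded in the mitochondrial genome. The nuclear genes add the remaining catalytic parts and a belt of small accessory subunits. In liver, this chain re-oxidises the carriers reduced by fatty acid oxidation and by the citric acid cycle. No file used here holds sequences of these genes or proteins, so none is printed.

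Most members had a higher mean level with SEFA-6179 than with MCT, but none was called by edgeR. The log2 fold change, SEFA-6179 over MCT, lay above 0 in 32 of 39 tested members, with a median of 0.24, or 1.18-fold. Over all 13671 tested genes 49.8% lay above 0 and the median was -0.0015. Tested with edgeR (quasi-likelihood, Benjamini-Hochberg over all tested genes, threshold 0.05), 0 members were called higher and 0 lower, where 0.117% of all tested genes were called higher and 0.102% lower. The adjusted p of the members ran from 0.153 for UQCR10 to 0.986 for CYC1. At an unadjusted p below 0.05, 13 of 39 members were higher and 0 lower, against 5.24% and 5.52% of all tested genes. DESeq2 called 2 members higher, UQCR10 and ATP5ME, and 0 lower (background 0.914% and 1.1%). These DESeq2 calls turned on single libraries: the count was 0 when any of 8 libraries was left out, 3 without SEFA-6179 replicate 1, 5 without MCT replicate 5 and 10 without MCT replicate 6. The same pair has an adjusted p below 0.05 in the authors' deposited table, 0.0423 for UQCR10 and 0.0294 for ATP5ME, where 0.528% of genes pass as higher and 0.632% as lower. In no member did the SEFA-6179 and MCT libraries separate without overlap, which 0.673% of all tested genes did upward and 0.819% downward.

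**Figure D1:**
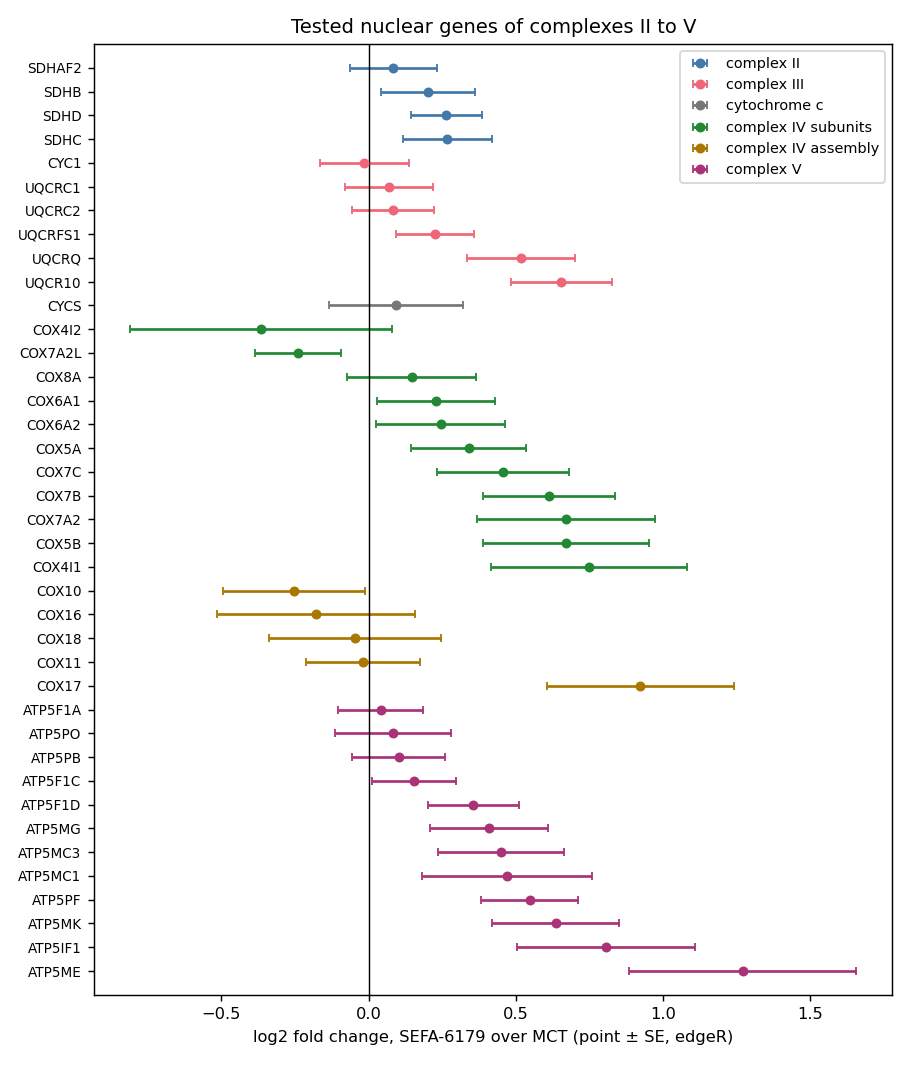
Log2 fold change of SEFA-6179 over MCT (x axis) for each of the 39 tested members (y axis), as edgeR estimate ± SE, coloured by complex and sorted within it. Complex V lies wholly to the right of 0, from ATP5F1A at 0.04 to ATP5ME at 1.27, while 4 of 5 complex IV assembly genes lie to the left.

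All 12 members of complex V lay above 0 (median 0.43), as did 4 of 4 in complex II (0.23), 5 of 6 in complex III (0.15) and 9 of 11 tested complex IV subunits (0.34). Among the 5 tested members that assemble complex IV, 1 lay above 0 (median -0.046). By role, the median in complex III was 0.08 for the 4 core and redox subunits and 0.59 for the 2 small accessory subunits. In complex V it was 0.15 for the 3 members of the F1 head and central stalk, 0.10 for the 3 of the peripheral stalk, 0.46 for the 2 of the c-ring and 0.63 for the 3 small membrane subunits. This split by role was drawn up after the values had been seen and was not tested.

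The complex II genes had log2 fold changes between 0.08 and 0.27, and none passed the test. SDHD, a membrane anchor that helps bind ubiquinone (chromosome 9, 39790561 to 39803946 in the coordinates of the deposited table, whose genome build is not given), was at 103, 105, 108, 120 and 109 CPM in SEFA-6179 replicates 1 to 5. CPM are counts relative to the scaled library total. In MCT it ran from 77.6 to 106 CPM with a median of 90.9. Of the MCT libraries only replicate 3 reached into the SEFA-6179 range, where it lay above 2 libraries. The means were 109 ± 6.71 CPM (SD, n = 5) and 90.7 ± 10.4 CPM (SD, n = 6), a log2 fold change of 0.26 ± 0.12 (SE; edgeR adjusted p = 0.454). SDHD overlaps TIMM8B on the opposite strand (mean 55.9 CPM), and without a stated strand setting reads of such a pair cannot be told apart. SDHC, the other anchor, was at 131, 170, 118, 203 and 136 CPM with SEFA-6179 and ran from 118 to 134 CPM, median 125, with MCT. Only SEFA-6179 replicates 2, 4 and 5 lay above the narrow MCT range, and the log2 fold change was 0.27 ± 0.15 (SE). Its means were 152 ± 34.7 CPM (SD, n = 5) and 126 ± 5.78 CPM (SD, n = 6), with an adjusted p of 0.548 in edgeR.

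SDHB, the iron-sulfur subunit that carries electrons through the enzyme, was at 213, 201, 156, 255 and 274 CPM with SEFA-6179 and between 167 and 211 CPM, with a median of 192, in MCT. The SEFA-6179 libraries thus lay on both sides of the MCT range, 3 above it and replicate 3 below it. The log2 fold change was 0.20 ± 0.16 (SE). SDHAF2, which inserts the flavin cofactor into the catalytic subunit and entered the list through its first letters, was at 47.0 ± 4.58 against 44.4 ± 8.87 CPM. The catalytic subunit SDHA is not a member, since its row has no symbol in the deposited table. Identified through the reference list of gene names, it averaged 394 ± 68.7 CPM (SD, n = 5) and 342 ± 29.5 CPM (SD, n = 6), a log2 fold change of 0.20 ± 0.15 (SE).

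The core and redox subunits of complex III had log2 fold changes between -0.015 and 0.23, and none passed the test. CYC1, which encodes cytochrome c1, was at 119, 147, 127, 190 and 143 CPM with SEFA-6179, and at 126 to 176 CPM, median 147, with MCT, so that the SEFA-6179 libraries spread across the whole MCT range and beyond it at both ends. Its log2 fold change was -0.015 ± 0.15 (SE). UQCRC1 and UQCRC2, the large core proteins on the matrix side, had log2 fold changes of 0.07 ± 0.15 and 0.08 ± 0.14 (SE). For UQCRC1 the levels were 230 ± 38.7 CPM (SD, n = 5) and 219.7 ± 25.0 CPM (SD, n = 6), and SEFA-6179 replicate 4 alone, at 292 CPM, lay above every MCT library. UQCRFS1, the Rieske iron-sulfur protein that takes electrons from ubiquinol, averaged 118 ± 12.6 against 101 ± 12.6 CPM, a difference of 0.23 ± 0.13 (SE) on the log2 scale (edgeR adjusted p = 0.566), and 4 of 6 MCT libraries lay below every SEFA-6179 library.

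The small complex III subunits showed larger differences. UQCR10 (chromosome 14, 46783134 to 46786120), a short subunit beside cytochrome c1, was at 50.6, 60.02, 62.3, 79.3 and 68.7 CPM in SEFA-6179 replicates 1 to 5. MCT ran from 28.1 CPM in replicate 2 to 56.1 CPM in replicate 6, with a median of 40.5. The groups overlapped through 2 libraries only: MCT replicate 6 lay above SEFA-6179 replicate 1, while the other 4 SEFA-6179 libraries exceeded every control and the other 5 controls fell short of every SEFA-6179 library. The means were 64.2 ± 10.6 CPM (SD, n = 5) and 40.8 ± 9.31 CPM (SD, n = 6), a 1.57-fold difference with a log2 fold change of 0.65 ± 0.17 (SE). This difference had the smallest p of the members (edgeR adjusted p = 0.153; over the alternatives from 0.0330 by DESeq2 to 0.336). UQCRQ, a ubiquinone-binding accessory subunit, was at 105, 114, 124, 166 and 125 CPM against 61.8 to 117 CPM, median 80.9, in MCT. Here MCT replicates 5 and 6, at 117 and 115 CPM, lay within the SEFA-6179 range and the other 4 lay below it (log2 fold change 0.52 ± 0.18 SE, edgeR adjusted p = 0.307).

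Cytochrome c is the mobile carrier between complexes III and IV and also a trigger of apoptosis once released. Its gene did not pass the test and spread widely with SEFA-6179. CYCS was at 63.2, 34.7, 100.4, 88.2 and 84.9 CPM with SEFA-6179 and at 50.4 to 83.2 CPM, median 71.0, with MCT. SEFA-6179 replicate 2 was the lowest of all 11 libraries while replicates 3, 4 and 5 were the 3 highest, and the log2 fold change was 0.09 ± 0.23 (SE).

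**Figure D2:**
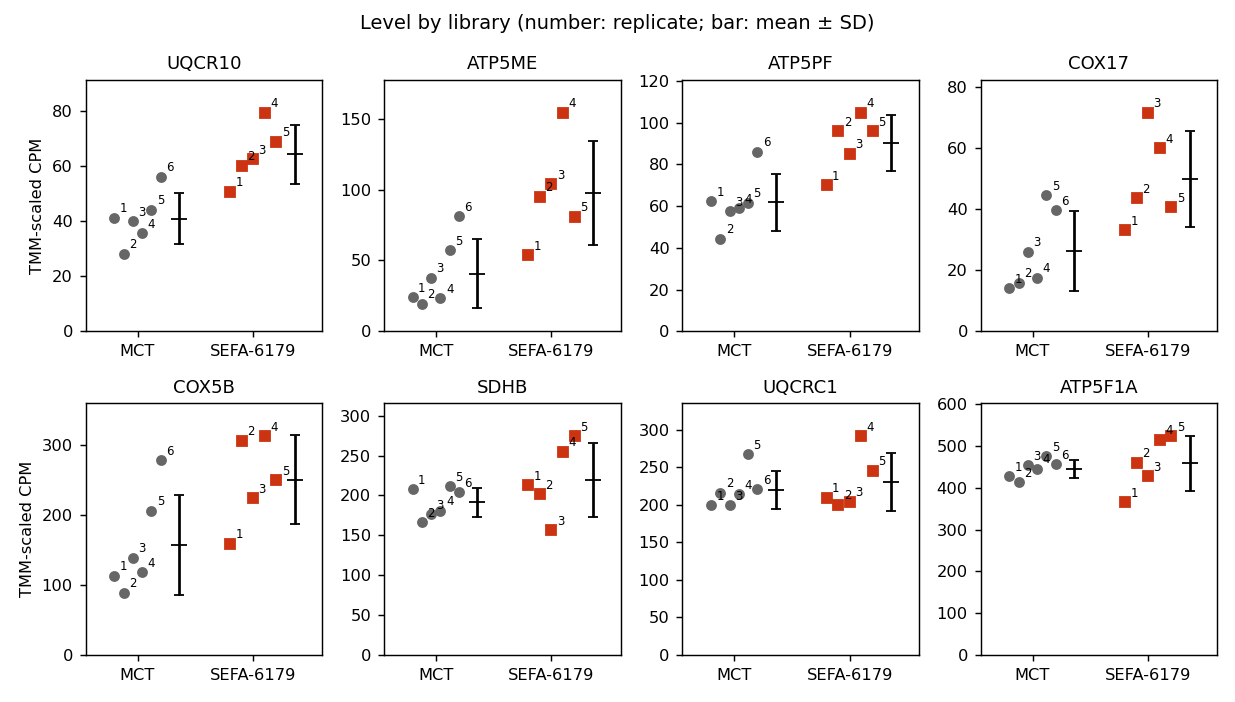
TMM-scaled CPM (y axis, from 0) in each MCT library (grey circles) and each SEFA-6179 library (red squares) for 8 members, with the replicate number beside each point and mean ± SD as bars. In UQCR10, ATP5ME, ATP5PF, COX17 and COX5B all SEFA-6179 libraries lie above MCT replicates 1 to 4. MCT replicate 6 reaches into their range in each of these genes, and MCT replicate 5 in ATP5ME, COX17 and COX5B. In SDHB, UQCRC1 and ATP5F1A the groups overlap, with 3, 1 and 2 SEFA-6179 libraries above every MCT library. SEFA-6179 replicate 3 in SDHB and replicate 1 in ATP5F1A lie below every MCT library.

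Among the nuclear subunits of complex IV, which surround the catalytic subunits made in the mitochondrion, 4 had an unadjusted p below 0.05 in edgeR: COX4I1, COX5B, COX7A2 and COX7B. COX7B (chromosome X, 61962415 to 62077376), a small membrane-spanning subunit, was at 102, 161, 139, 179 and 207 CPM with SEFA-6179 and at 70.8 to 150 CPM, median 88.9, with MCT. MCT replicates 1 to 4 lay below every SEFA-6179 library and MCT replicates 5 and 6 among them (log2 fold change 0.61 ± 0.22 SE, edgeR adjusted p = 0.314). COX5B, a zinc-binding subunit on the matrix side, was at 159, 306, 223, 312 and 250 CPM against 88.9 to 278 CPM, median 128. Again MCT replicates 1 to 4 were the 4 lowest of the 11 libraries, and the log2 fold change was 0.67 ± 0.28 (SE; edgeR adjusted p = 0.393). COX4I1, the general isoform of subunit 4 through which ATP regulates the enzyme, was at 90.6 ± 29.2 CPM (SD, n = 5) and 53.9 ± 29.4 CPM (SD, n = 6), with 108 CPM in MCT replicate 6 and 26.6 CPM in replicate 2. COX7A2, the general isoform of subunit 7a, was at 86.6 ± 29.3 against 54.5 ± 23.6 CPM. In both genes the difference was little larger than the SD of a group (edgeR adjusted p = 0.435 and 0.443). COX4I1 overlaps IRF8 on the same strand (mean 20.2 CPM) and COX7B overlaps ATP7A on the same strand (5.36 CPM).

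The other complex IV subunits were nearer to 0. COX7C was at 191 ± 30.6 against 140 ± 54.6 CPM, and 5 of 6 MCT libraries lay below every SEFA-6179 library while the remaining one, replicate 6 at 248 CPM, was the highest of all 11. COX5A averaged 88.1 ± 11.8 against 69.6 ± 20.3 CPM, and COX6A1 165 ± 34.6 against 141 ± 39.3 CPM. COX5A, COX6A1 and COX8A, with log2 fold changes of 0.34 ± 0.19, 0.23 ± 0.20 and 0.15 ± 0.22 (SE), did not pass either. COX7A2L, a factor that joins complexes III and IV into supercomplexes, stood at the other side of 0 with 114 ± 14.9 CPM (SD, n = 5) against 135 ± 18.6 CPM (SD, n = 6), a log2 fold change of -0.24 ± 0.14 (SE; edgeR adjusted p = 0.579). Its SEFA-6179 values were 91.6, 132, 113, 121 and 114 CPM, and MCT ran from 102 CPM in replicate 3 to 157 CPM in replicate 1. MCT replicates 2 and 3 lay within the SEFA-6179 range and the other 4 above it.

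Several subunits of complex IV exist as tissue isoforms, and these livers held mainly the general ones. On the scale of length, in the deposited FPKM, COX4I1 was at 85.5 and the lung-type isoform COX4I2 at 1.01, both as means over 11 libraries. COX7A2 was at 128 FPKM and the heart and muscle isoform COX7A1 at 0.0466. COX6A1 was at 30.9 FPKM and its heart and muscle counterpart COX6A2 at 12.8, a smaller gap than in the other pairs. The deposited lengths differ within each pair and enter these values. They are 4860 bases for COX6A1 and 1383 for COX6A2, 535 for COX7A2 and 2320 for COX7A1, 816 for COX4I1 and 556 for COX4I2. All 8 muscle markers that were looked up were low or not in the table: 6 were in it, none passed the count filter, and their summed level ran from 0.93 to 3.52 CPM with SEFA-6179 and from 1.00 to 3.62 CPM with MCT. COX6A2 was at 19.6 ± 3.41 CPM (SD, n = 5) and 16.5 ± 5.73 CPM (SD, n = 6). Its row in the deposited table spans 21717 bases of chromosome 3 (17113388 to 17135104), and whether reads of other transcripts fall into this gene model was not tested. COX4I2 was at 0.511, 0.404, 0.724, 0.238 and 0.554 CPM with SEFA-6179 and ran from 0.303 to 0.948 CPM, median 0.641, with MCT, so that the groups overlapped widely. Its log2 fold change, the lowest of the tested members, was -0.36 ± 0.44 (SE; edgeR adjusted p = 0.817) on a mean of 10.6 counts per library. The 4 members too low for a test were COX19, COX7A1, COX20 and COX6B2: COX19 had 61 counts over all 11 libraries, COX7A1 23, COX20 16 and COX6B2, a testis isoform, 5.

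Among the tested members that build complex IV, 4 of 5 had log2 fold changes below 0. COX10, which makes heme o on the way to heme a, was at 4.94, 5.89, 5.12, 5.48 and 2.46 CPM with SEFA-6179, and ran from 4.45 to 7.96 CPM, median 5.59, with MCT. Its SEFA-6179 libraries lay within the MCT range except for the low replicate 5, and the log2 fold change was -0.25 ± 0.24 (SE; edgeR adjusted p = 0.758). COX11 and COX18, of copper delivery and membrane insertion, had values of -0.020 ± 0.19 and -0.046 ± 0.29. COX16 was at 1.51 ± 0.57 against 1.72 ± 0.494 CPM. The exception was COX17 (chromosome 13, 140584363 to 140614159), the copper chaperone that supplies the enzyme's copper centres. It was at 33.2, 43.6, 71.7, 60.01 and 40.7 CPM with SEFA-6179, and at 14.1 to 44.5 CPM, median 21.8, with MCT. MCT replicates 1 to 4 lay below all SEFA-6179 libraries and MCT replicates 5 and 6, at 44.5 and 39.7 CPM, within their range (log2 fold change 0.92 ± 0.32 SE, edgeR adjusted p = 0.300). COX15, also of heme a synthesis and known here only through the reference list, was at 31.0 ± 6.598 against 26.7 ± 3.18 CPM. Its log2 fold change was above 0, at 0.21 ± 0.15 (SE).

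In complex V the log2 fold changes ran from 0.04 for ATP5F1A to 1.27 for ATP5ME, and none passed the test in edgeR. ATP5F1A, the alpha subunit of the head that makes ATP, was at 366, 461, 428, 515 and 524 CPM with SEFA-6179 and at 414 to 476 CPM, median 450, with MCT. The SEFA-6179 libraries lay around the narrow MCT range, 1 below it and 2 above it, and the log2 fold change was 0.04 ± 0.14 (SE). ATP5F1C, the rotating gamma subunit, had one of 0.15 ± 0.14 (SE). ATP5F1D, the delta subunit of the same central stalk, was at 196 ± 12.6 CPM (SD, n = 5) and 153 ± 31.9 CPM (SD, n = 6), and 5 of 6 MCT libraries lay below every SEFA-6179 library (log2 fold change 0.36 ± 0.15 SE, edgeR adjusted p = 0.413).

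The peripheral stalk, which holds the head still, was uneven. ATP5PB and ATP5PO had log2 fold changes of 0.10 ± 0.16 and 0.08 ± 0.20 (SE). ATP5PF (chromosome 13, 189278945 to 189290229), coupling factor 6, was at 69.9, 95.8, 85.2, 105 and 95.8 CPM with SEFA-6179, against 44.4 to 86.2 CPM, median 60.3, with MCT. All MCT libraries other than replicate 6 lay below all SEFA-6179 libraries, and the log2 fold change was 0.55 ± 0.16 (SE; edgeR adjusted p = 0.220, from 0.0811 to 0.431 over the alternatives). ATP5PF overlaps GABPA on the opposite strand (mean 23.5 CPM). Of the c-ring, the rotor that protons turn, ATP5MC1 was at 63.4 ± 23.4 against 45.8 ± 18.2 CPM and ATP5MC3 at 119 ± 34.3 against 87.2 ± 22.3 CPM. These genes code for the same mature protein behind different import sequences, and their log2 fold changes were 0.47 ± 0.29 and 0.45 ± 0.21 (SE; edgeR adjusted p = 0.586 and 0.470). Per length they averaged 45.1 and 12.2 FPKM, but their deposited lengths, 1180 and 8237 bases, enter these values. By mean count per library the order was reversed, 987 for ATP5MC1 and 1876 for ATP5MC3. ATP5MC3 overlaps ATF2 on the same strand (mean 22.1 CPM).

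ATP5ME (chromosome 8, 110604 to 114908), subunit e, which helps ATP synthase form dimers, had the largest fold change of the members. It was at 53.8, 95.0, 103.8, 154 and 80.8 CPM in SEFA-6179 replicates 1 to 5 and ran from 19.4 CPM in MCT replicate 2 to 81.4 CPM in MCT replicate 6, median 30.9. MCT replicates 1 to 4 were at 37.8 CPM or less, and replicates 5 and 6 lay within the SEFA-6179 range. The means were 97.6 ± 37.0 CPM (SD, n = 5) and 40.5 ± 24.4 CPM (SD, n = 6), 2.41-fold apart, with a log2 fold change of 1.27 ± 0.38 (SE; edgeR adjusted p = 0.234; over the alternatives from 0.0321 by DESeq2 to 0.401). The other small membrane subunits were ATP5MK at 74.0 ± 14.8 against 47.7 ± 15.4 CPM and ATP5MG, which also takes part in dimer formation, at 120.1 ± 24.6 against 90.5 ± 25.5 CPM. ATP5IF1, the inhibitor that stops ATP synthase from running backwards when the membrane potential falls, was at 37.3, 49.3, 44.4, 70.1 and 67.7 CPM against 18.6 to 50.2 CPM, median 24.0. Its log2 fold change was 0.81 ± 0.30 (SE; edgeR adjusted p = 0.334), and MCT replicates 5 and 6 again lay among the SEFA-6179 libraries. On the opposite strand ATP5MK overlaps PDCD11 (mean 29.9 CPM) and ATP5IF1 overlaps DNAJC8 (27.9 CPM).

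Part of the spread ran with the library across members. MCT replicate 2 was the lowest of the 6 MCT libraries in 23 of 39 tested members, and MCT replicate 6 or 5 the highest in 15 and 14. Among the SEFA-6179 libraries replicate 1 was the lowest in 25 members and replicate 4 the highest in 23. The mean log2 level of the members, set to a mean of 0 in MCT, was 0.03, 0.31, 0.33, 0.57 and 0.34 in SEFA-6179 replicates 1 to 5. In MCT replicates 1 to 6 it was -0.11, -0.35, -0.023, -0.11, 0.23 and 0.36. SEFA-6179 replicate 4 alone lay above all MCT libraries, and SEFA-6179 replicate 1 lay below MCT replicates 5 and 6. Summed over the tested members, their level came to 4636 ± 695 CPM (SD, n = 5) in treated and 3818 ± 587 CPM (SD, n = 6) in control animals. On the first principal component of all tested genes MCT replicate 5 stood apart, at 83.1 against -30.8 to 14.7 for the other 10 libraries, with SEFA-6179 replicate 4 the next highest. Without both of these libraries 31 of 39 members lay above 0 with a median of 0.25.

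**Figure D3:**
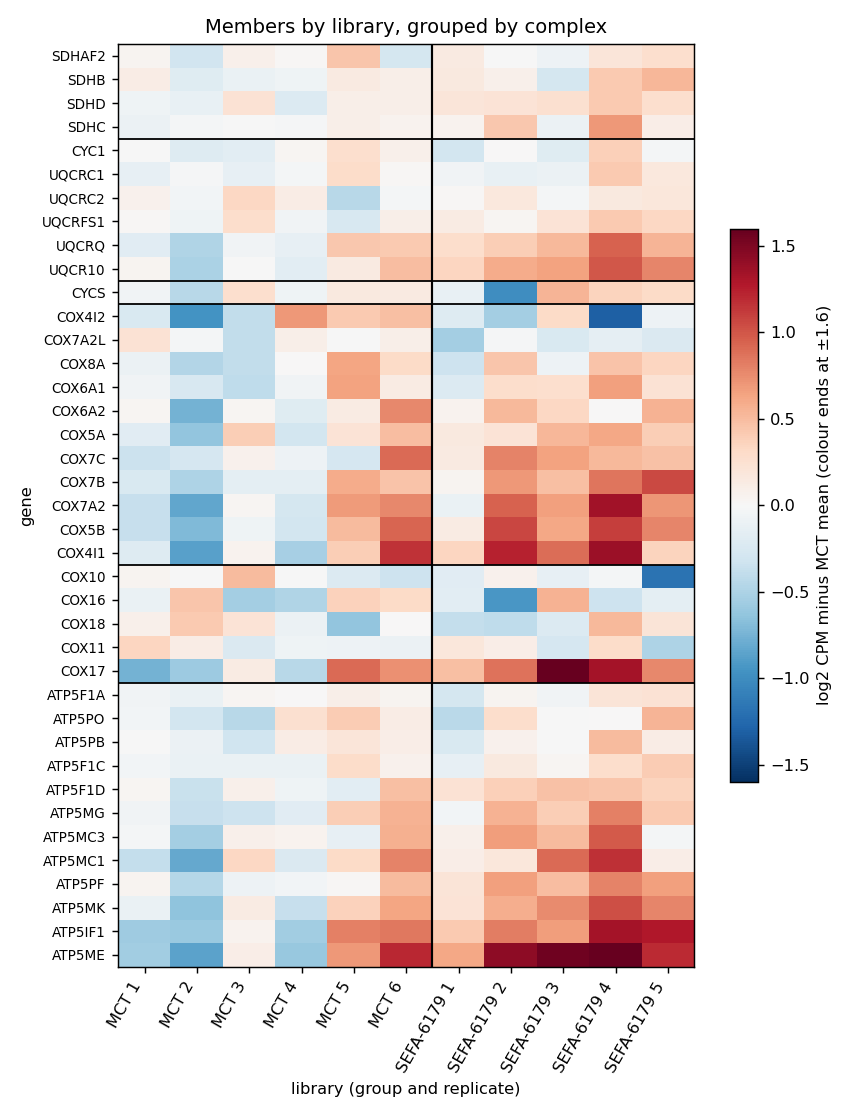
Log2 CPM of each tested member (rows, grouped by complex II, III, cytochrome c, complex IV subunits, complex IV assembly and complex V from top to bottom) in each library (columns), minus the mean of the 6 MCT libraries. MCT replicate 2 is the bluest column and SEFA-6179 replicate 4 the reddest, and MCT replicates 5 and 6 resemble the SEFA-6179 columns in the small subunits of complexes III, IV and V.

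Short genes as a class had a like order of libraries. Over the 501 tested genes outside the list with a deposited length under 1000 bases, the median log2 level relative to MCT was 0.03, 0.25, 0.24, 0.32 and 0.22 in SEFA-6179 replicates 1 to 5, and it ran from -0.29 in MCT replicate 2 to 0.35 in MCT replicate 6, with 0.32 in MCT replicate 5. Their median log2 fold change was 0.15 and 309 of them lay above 0, while the 13131 other longer genes had a median of -0.0052. Among the members, the 12 tested ones under 1000 bases had a median of 0.58 and the 27 longer ones 0.23. With a correction for gene length in each library, 30 of 39 members lay above 0 with a median of 0.21, and the other short genes had a median of -0.014. The correction is fitted over all tested genes, so a median near 0 for short genes follows from how it is made. Under that correction UQCR10 had a log2 fold change of 0.49, ATP5MK 0.46, COX17 0.80 and ATP5ME 1.26. The deposited length of ATP5ME is 2278 bases, so it was not corrected as a short gene. Its value therefore cannot show whether it varies with the libraries as short genes do. How the deposited lengths were derived is not given. They are long for some small subunits, 13591 bases for ATP5MG and 8237 for ATP5MC3, and short for others, 619 for UQCR10 and 425 for ATP5MK, and both the correction and the FPKM depend on them.

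**Figure D4:**
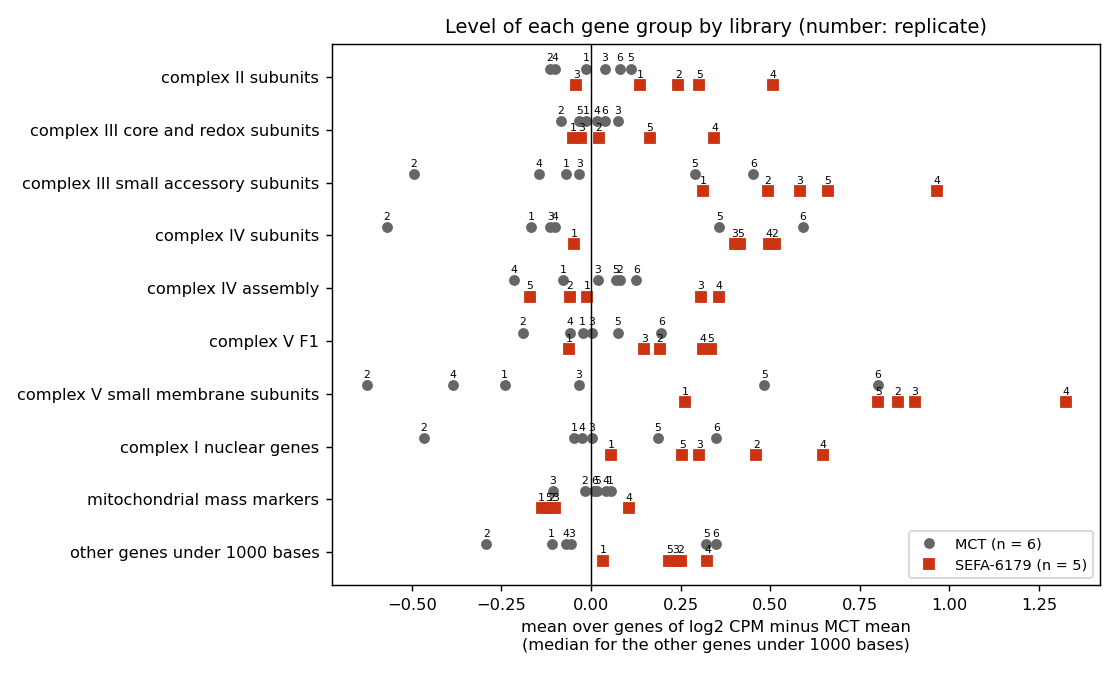
Level of each gene group (rows) in each library: the mean over its genes of log2 CPM minus the MCT mean (x axis), or the median for the 501 other genes under 1000 bases, with MCT as grey circles, SEFA-6179 as red squares and replicate numbers above. In the small subunits of complexes III and V, 4 of 5 SEFA-6179 libraries lie above MCT replicate 6, for complex V replicate 5 only narrowly. In the complex II subunits, too, 4 of 5 SEFA-6179 libraries lie above every MCT library, all but replicate 3 at -0.041. The core subunits of complex III and the mitochondrial mass markers stay near 0 in most libraries.

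Outside the rule on symbols, 7 subunit or assembly genes were identified whose rows carry no symbol. They are SDHA, UQCR11, COX15 and 4 genes of ATP synthase that the deposited descriptions name as subunit c locus 2, f, epsilon and d. All 7 lay above 0, with a median of 0.40, and 0 were called by edgeR or DESeq2, with 2 at an unadjusted p below 0.05 in edgeR. The c subunit gene at locus 2 was at 41.8 ± 14.2 CPM (SD, n = 5) and 25.0 ± 7.995 CPM (SD, n = 6), and subunit f at 191 ± 42.6 against 127 ± 37.7 CPM. With these, the pair of c-ring members and locus 2 form a set of 3 genes, all above 0. Some subunit genes, such as ATP5F1B, UQCRB, UQCRH, COX6B1 and COX6C, are neither among the members nor among these 7. The counts and medians by complex and by role thus do not cover every subunit.

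The mitochondrially encoded partners of complexes III, IV and V were compared with the nuclear ones by their own values. All 6 had a log2 fold change above 0, from 0.05 ± 0.23 (SE) for COX1, the catalytic subunit of complex IV, to 0.58 ± 0.19 for COX3. COX3 was at 15752 ± 1757 CPM (SD, n = 5) and 10505 ± 1639 CPM (SD, n = 6), with no overlap between the groups. It was not called by edgeR (adjusted p = 0.255) and was called by DESeq2 (adjusted p = 0.00709). With the length correction 4 of the 6 lay above 0, with a median of 0.15.

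Other genes of the pathway are given as counts. Nuclear genes of complex I, the NADH dehydrogenase, lay above 0 in 36 of 41 cases with a median of 0.34, and NDUFA5 had the smallest p; edgeR called 0 of them in either direction (11 had an unadjusted p below 0.05), and DESeq2 called 1 higher. Of 36 listed assembly and maturation factors of complexes II to V, 23 were tested and 18 lay above 0 (median 0.23), 3 of them with an unadjusted p below 0.05. The 23 include SDHAF2, which is also counted above as a member under complex II (log2 fold change 0.08). The smallest p was that of UQCC1, which helps make cytochrome b, at 60.9 ± 17.1 against 38.8 ± 6.36 CPM (edgeR adjusted p = 0.187). The transcriptional regulators of respiratory genes did not share this direction: 5 of 13 tested lay above 0, with a median of -0.052. NRF1, a factor that binds many respiratory gene promoters, was at 9.09 ± 1.21 against 10.8 ± 0.78 CPM, and the coactivator PPARGC1A at 36.3 ± 15.6 against 24.6 ± 8.58 CPM (edgeR adjusted p = 0.548 and 0.579).

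Markers of mitochondrial mass outside the chain lay mostly on the other side. Of 16 tested genes such as CS, the VDAC channels, import receptors and chaperones, 3 lay above 0 and the median was -0.12. Summed, they came to 2983 ± 206 CPM (SD, n = 5) in treated and 3217 ± 271 CPM (SD, n = 6) in control animals. IMMT, a builder of cristae junctions, averaged 54.7 ± 4.89 against 73.9 ± 9.15 CPM with no overlap between the groups. It was not called by edgeR (adjusted p = 0.199) and was called lower by DESeq2 (adjusted p = 0.0472). HSPD1, a matrix chaperone and a gene chosen here because its groups also did not overlap, averaged 376 ± 37.3 against 297 ± 21.4 CPM (edgeR adjusted p = 0.360). SLC25A4, an ADP/ATP carrier, averaged 303 ± 47.5 against 209.7 ± 49.3 CPM (edgeR adjusted p = 0.284). Of 5 tested genes of uncoupling and peroxide removal all lay above 0, with a median of 0.31. None of the genes in these lists was called by edgeR. DESeq2 called 1 mass marker, IMMT, lower and none in the assembly, regulator and peroxide lists. At an unadjusted p below 0.05 in edgeR, 2 mass markers were higher and 2 lower, and no regulator or peroxide gene passed.

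Markers of the cells in the tissue were set beside these values. Hepatocyte markers lay above 0 in 6 of 9 tested rows, with a median of 0.09, and their sum, mostly albumin mRNA, ran from 65364 to 172041 CPM with SEFA-6179 and from 56567 to 164429 CPM with MCT. The sums of the other lists overlapped too. Cholangiocyte markers summed to 35.0 to 72.4 against 44.8 to 139 CPM, macrophage markers to 50.7 to 1767 against 163 to 1039 CPM, endothelial markers to 348 to 709 against 290 to 614 CPM, and stellate cell markers to 494 to 801 against 631 to 1008 CPM. By median log2 fold change the endothelial list was at 0.42 (6 of 6 tested genes above 0), the macrophage list at 0.33 (6 of 7) and the T and NK list at 0.27 (6 of 6). The cholangiocyte list was at -1.13 (0 of 6), the erythroid list at -0.23 (1 of 5) and the stellate list at -0.14 (1 of 7). In edgeR 0 marker genes were called. At an unadjusted p below 0.05 there, 4 cholangiocyte and 3 stellate genes were lower, and 2 endothelial, 1 stellate and 1 erythroid gene higher. DESeq2 called 3 cholangiocyte genes lower and no other marker. In 1 cholangiocyte gene, CD24, the groups did not overlap. It ran from 2.28 to 5.05 CPM with SEFA-6179 and from 5.62 to 11.6 CPM with MCT (adjusted p = 0.0539 in edgeR and 0.000269 in DESeq2). Erythroid markers summed to between 230 and 504 against 110 and 427 CPM, and those of T and NK cells to between 7.62 and 26.6 against 7.49 and 22.5 CPM. The part of cell composition in the member levels was not tested.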

How the data were processed

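The authors deposited 1 table with, per the file headers, a raw count, an FPKM value and a normalized signal for each gene and library, group means of that signal, and their log2 fold change, p-value and adjusted p-value. That deposited signal equals each count over a library's own size factor, as a check of the values found. The submitters' processing notes name DESeq2 1.20.0, featureCounts 1.5.0-p3, StringTie 1.3.3b and HISAT2 2.0.5, with no roles. For genome build, annotation and strand setting, the sources used here give nothing. Of the tested members 11 overlap a tested gene on the opposite strand and 3 one on the same strand.

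The count test was that of edgeR 4.0.16 (R 4.3.3): filterByExpr (minimum count 10), TMM scaling, robust quasi-likelihood test over 11 libraries, two-sided, Benjamini-Hochberg over 13671 genes. Standard errors were derived from the fold change and F. On simulated counts for SEFA-6179 against MCT (13421 genes) the test recovered 41 of 95 genes changed by 1 and 86 of 97 changed by 2 on the log2 scale, with 6 of 133 calls false. Alternatives used DESeq2 1.42.0, limma 3.58.1, other scalings and filters, a replicate block, left-out libraries and a length correction (loess of each library's log2 ratio to the mean on log2 length, span 0.5, prior count 2).

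Members and lists were chosen with earlier results of these data known. The rule for values (by library, or as mean ± SD) took members past the threshold, the 2 smallest p in each class, CYCS, a set list of central subunits and the lowest log2 fold change. The isoform pairs are given in FPKM. Members named beyond the rule were chosen after their values were seen.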

Additional observations from a re-analysis of the deposited data

Results flagged for a closer look

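In 4 of 78 groups of libraries (39 tested members in 2 groups each) a single library was far out, where chance alone gives about 1 in 20 groups, or 3.9. COX7C reached 248 CPM in MCT replicate 6, while the other controls ran from 105 to 139 CPM. UQCRC1 reached 267 CPM in MCT replicate 5, and its other controls ran from 199 to 221 CPM. COX10 was low in SEFA-6179 replicate 5, at 2.46 CPM against 4.94 to 5.89 CPM, and high in MCT replicate 3, at 7.96 CPM against 4.45 to 5.76 CPM.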

How the results depend on the processing

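All alternatives kept the number of members above 0 between 30 and 34 (33 of 43 with no count filter) and the median log2 fold change between 0.18, without SEFA-6179 replicate 4, and 0.30, without SEFA-6179 replicate 1. No edgeR or limma alternative called a member. DESeq2 called 2 with all libraries, UQCR10 and ATP5ME. With DESeq2 and 1 library left out, an alternative chosen after the data were seen, the calls ran from 0 to 10: 10 without MCT replicate 6, 5 without MCT replicate 5, 3 without SEFA-6179 replicate 1 and 0 without any of the other 8 libraries. With plain library totals in place of TMM scaling, 1 member, COX7A2L, had groups that did not overlap, with SEFA-6179 lower. The share of all tested genes with such groups was not counted under plain totals. With the length correction COX8A (-0.019) and ATP5PO (-0.057) changed sign, and without MCT replicate 5 and SEFA-6179 replicate 4 UQCRC2 did (-0.0053; up to 0.15 without MCT replicate 3). With no count filter the median of the complex IV assembly genes was -0.17. Leaving out SEFA-6179 replicate 3 or MCT replicate 2 put it above 0. In tests that left out 1 library, 31 of 39 members kept their sign in all that tested them. The ranges of those that did not, with the setting that left out both libraries included, were -0.014 to 0.11 for ATP5F1A, -0.011 to 0.17 for ATP5PB, -0.048 to 0.20 for ATP5PO, -0.12 to 0.076 for COX11, -0.31 to 0.044 for COX18, -0.13 to 0.044 for CYC1, -0.041 to 0.27 for CYCS and -0.026 to 0.13 for UQCRC1. The cause of these changes was not tested. With the replicate block over replicates 1 to 5, 32 of 39 members lay above 0 with a median of 0.27 and 0 calls among the members, and 8 genes were called over all genes. This fit holds no MCT replicate 6, without which the fit with no block called 40. Over all genes limma called 60 and DESeq2 125 higher and 151 lower. The edgeR count was 1 when both MCT replicate 5 and SEFA-6179 replicate 4 were left out, and it ran from 0 to 53 with 1 library left out. No pairing of same-numbered libraries is given in the sources used here. Same-numbered libraries correlated between -0.15 and 0.20 in their deviations from group means, which cannot show whether any were paired.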
